A study of Mus musculus with 8 samples.

Results

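The hypoxia response of wild-type mouse heart fibroblasts was read from 4 of the 8 samples of the series, 2 kept in hypoxia and 2 in normoxia, by taking every hypoxic sample labelled wild type and every normoxic sample labelled wild type. The cells were primary fibroblasts freshly isolated from mouse hearts and grown in DMEM with fetal bovine serum. Hypoxia was 6 h at 1% O2 in a hypoxia chamber, and the normoxic cells were left untreated. The other 4 samples, 2 hypoxic and 2 normoxic, came from fibroblasts labelled Siah knockout, and the labels do not say which Siah gene was deleted. The design describes the 2 samples of each group as biological replicates without saying which cultures or animals they came from, and strain, age and sex are not given in the sources used here. A p-value therefore measures the spread between these samples.

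Total RNA was labelled with Cy3 and hybridised to Agilent arrays, with 1 array for each sample. Of 62976 spots, 43941 carried 1 gene, and they named 24306 genes. Where a gene had several spots, the brightest on average across the series stood for it, and the dimmest 30% of genes were set aside, which left 17014 genes tested. All values below are the deposited log2 intensities, so a difference of 1 is a doubling of intensity. The lowest deposited value was 2.13 and the highest 16.0, and a gene close to that upper end has little room to show a difference. Levels of different genes come from different probes and are not compared.

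Cells sense oxygen through the prolyl hydroxylases Egln1, Egln2 and Egln3, which mark the HIF alpha subunits for destruction through the Vhl ubiquitin ligase. When oxygen is scarce the alpha subunits persist, pair with Arnt and bind DNA at a short core sequence near target genes for glycolysis, blood vessel growth, mitophagy and matrix maturation. The Siah ubiquitin ligases act on prolyl hydroxylases and in that way touch the same circuit.

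No gene passed the threshold of a Benjamini-Hochberg adjusted p of 0.05 in limma's moderated test of hypoxia against normoxia (0 of 17014 genes, 0%), and the smallest adjusted p was 0.554. At an unadjusted p under 0.05, 616 genes passed (3.62%), 381 of them higher in hypoxia (2.24%) and 235 lower (1.38%). With 2 samples in each group an exact two-sided permutation test of a single gene cannot go below p = 0.333. The genes below are therefore described by their values in every sample. A gene is counted as higher or lower without overlap when both hypoxic samples lay above or below both normoxic samples.

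Without overlap and with a mean difference of at least 1, 234 genes were higher in hypoxia (1.38%) and 118 were lower (0.694%). The balance between directions differed with brightness. When the tested genes were divided into 4 equal bins from dim to bright, 119 were higher and 98 lower in the dimmest bin, and 71 were higher and 16 lower in the next. In the third bin 24 were higher and 1 was lower, and in the brightest bin 20 were higher and 3 were lower. Replicates were also further apart at low intensity: the median distance between the 2 hypoxic samples was 0.504 in the dimmest bin and 0.195 in the brightest, and between the 2 normoxic samples 0.505 and 0.234. Genes were accordingly named from those whose brighter group averaged at least 7.79, the median of all tested gene means, and 60 such bright genes were higher in hypoxia while 4 were lower. With 1 array left out the lone sample has no partner to meet the same condition, and the counts grew. They were 470 higher and 330 lower when the first hypoxic array was dropped, 566 and 386 for the second, 418 and 387 for the first normoxic array, and 655 and 446 for the second. The bright genes numbered 140 higher and 56 lower, 84 and 23, 87 and 61, and 138 and 71 in the same order. The 2 hypoxic samples differed from each other by at least 1 for 1633 genes and the 2 normoxic samples for 1931 genes, and single hypoxic and single normoxic samples differed by at least 1 for 979 to 1924 genes.

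**Figure D1:**
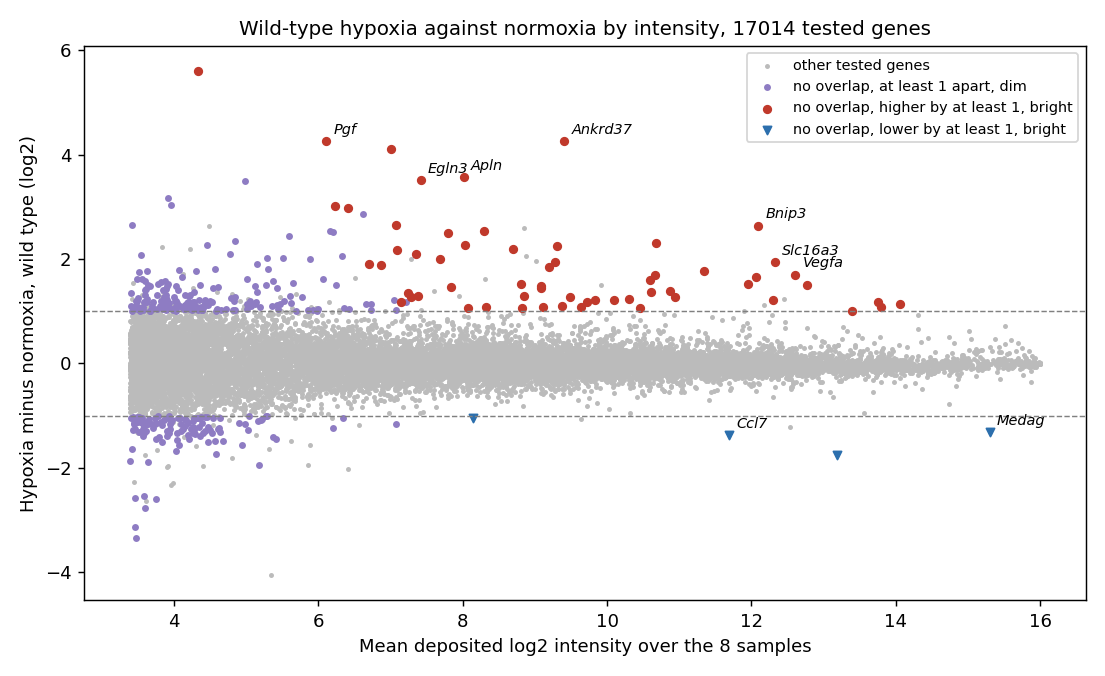
Difference between the hypoxic and normoxic wild-type means (log2, vertical) against the mean log2 intensity over the 8 samples (horizontal), 1 point for each of the 17014 tested genes, with dashed lines at a difference of 1 in either direction. The 60 bright genes higher by at least 1 without overlap are red, the 4 bright lower genes are blue triangles, and dimmer genes that met the same distance are purple.

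The 15 bright higher genes with the smallest p included the vascular factors Pgf and Apln, the mitochondrial genes Bnip3 and Ak4, the glycolytic enzyme Pfkl and the oxygen sensor Egln3. Pgf, a placental growth factor of the VEGF family, stood at 8.78 and 8.49 in the hypoxic samples, against 4.14 and 4.63 in the normoxic samples. Its difference was 4.25 ± 0.40 (SE, n = 2 each), which is 19.1-fold, with a limma adjusted p of 0.554. Each SE comes from limma's moderated spread over all 4 groups, knockout-labelled samples included, and not from the wild-type replicates alone. Ankrd37, an ankyrin-repeat gene used as a hypoxia marker, stood at 11.74 and 11.29 in hypoxia, against 7.78 and 6.74 in normoxia. That difference of 4.26 ± 0.69 (SE) was 19.1-fold, and the hypoxic samples were clear of the normoxic ones in both genes. Apln, the gene for the vasoactive peptide apelin, had 9.15 and 10.37 in hypoxia and 5.58 and 6.80 in normoxia, a difference of 3.57 ± 0.53 (SE) or 11.9-fold. Its hypoxic samples differed from each other, as did its normoxic samples, and the groups still did not overlap.

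Bnip3, a mitophagy receptor of the outer mitochondrial membrane, measured 13.33 and 14.26 in hypoxia, against 10.89 and 11.42 in normoxia (difference 2.64 ± 0.39, SE). Ero1a, the oxidase that helps form disulphide bonds in the endoplasmic reticulum, measured 12.50 and 12.88 in hypoxia, against 11.27 and 11.07 in normoxia (difference 1.52 ± 0.20, SE). Itpk1, an inositol phosphate kinase, measured 8.18 and 8.78 in hypoxia, against 5.84 and 5.82 in normoxia (difference 2.65 ± 0.36, SE). In each of these genes the lower hypoxic sample was above the higher normoxic one by more than the distance between the replicates. Sik1, a salt-inducible kinase, had 8.19 and 8.41 in hypoxia and 6.22 and 6.18 in normoxia. Krt19, a keratin, had 8.24 and 8.31 in hypoxia and 6.58 and 5.98 in normoxia. Mboat2, a membrane-bound acyltransferase, had 7.69 and 8.04 in hypoxia and 5.76 and 6.13 in normoxia. The limma adjusted p was 0.663 for each of these 6 genes, so none passed. Prelid2, Vldlr, Pfkl, Ak4, Egln3 and Rgs11 made up the rest of the 15, with differences between 1.23 (Pfkl) and 3.51 (Egln3).

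**Figure D2:**
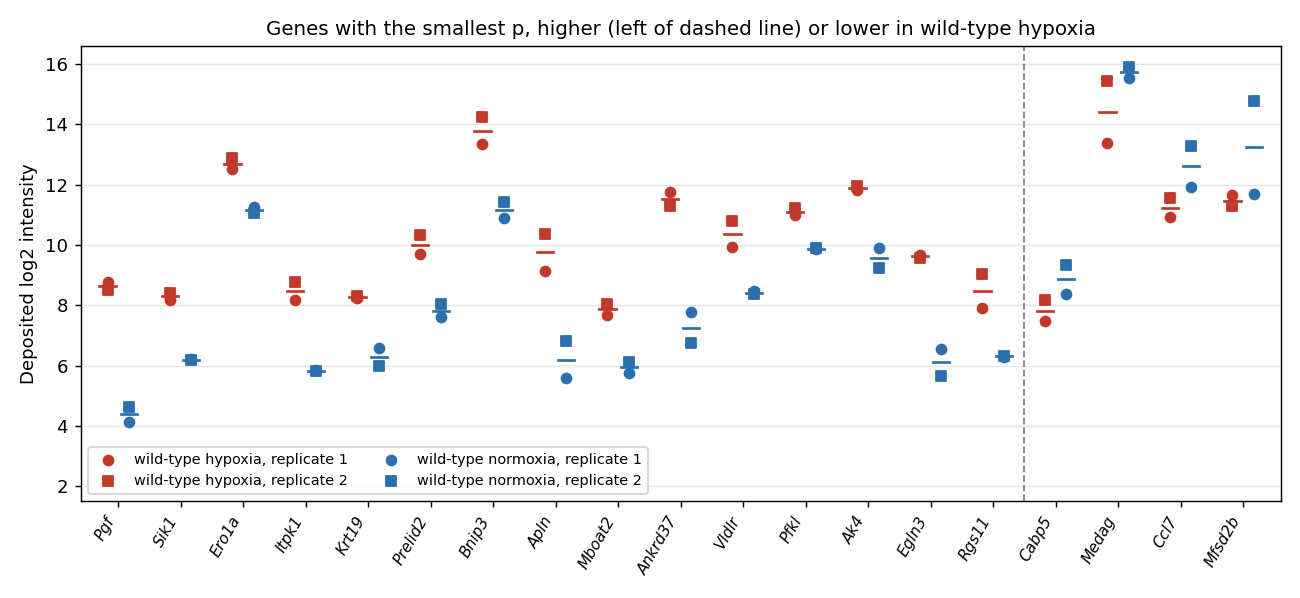
Log2 intensity (vertical) of the 15 bright genes higher in wild-type hypoxia with the smallest p (left of the dashed line) and of the 4 bright lower genes (right), in the 2 hypoxic samples (red, left of each pair) and the 2 normoxic samples (blue), with the group mean as a short line. Pgf, with the smallest p, has 8.78 and 8.49 in hypoxia against 4.14 and 4.63 in normoxia, while the normoxic samples of Mfsd2b lie far apart, at 11.70 and 14.77.

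Promoters of 6 of these highest-ranked genes are shown because HIF is known to bind the core letters ACGTG or GCGTG. Each runs 5′ to 3′ on the gene's own strand across the start of the first-listed transcript, from RefSeq on build GRCm38.p6, and capitals mark every ACGTG or GCGTG on either strand (read as CACGT or CACGC where the match is on the opposite strand). Pgf lies at chr12:85177264-85177563 (minus strand), Ero1a at chr14:45318523-45318822 (minus), Itpk1 at chr12:102704820-102705119 (minus), Bnip3 at chr7:138909457-138909756 (minus), Apln at chrX:48034804-48035103 (minus) and Mboat2 at chr12:24831349-24831648 (plus).
Pgf: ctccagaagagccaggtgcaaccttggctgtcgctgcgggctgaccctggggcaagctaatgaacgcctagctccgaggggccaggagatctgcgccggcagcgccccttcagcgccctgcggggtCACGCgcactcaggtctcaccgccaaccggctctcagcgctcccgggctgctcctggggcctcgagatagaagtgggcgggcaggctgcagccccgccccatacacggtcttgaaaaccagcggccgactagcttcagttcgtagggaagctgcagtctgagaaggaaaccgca
Ero1a: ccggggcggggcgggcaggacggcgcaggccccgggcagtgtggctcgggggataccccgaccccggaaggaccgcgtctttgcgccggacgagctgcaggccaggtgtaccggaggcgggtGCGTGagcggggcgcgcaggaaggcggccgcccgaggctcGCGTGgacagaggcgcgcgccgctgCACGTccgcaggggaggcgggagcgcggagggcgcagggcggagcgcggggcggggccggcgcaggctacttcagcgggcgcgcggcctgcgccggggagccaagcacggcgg
Itpk1: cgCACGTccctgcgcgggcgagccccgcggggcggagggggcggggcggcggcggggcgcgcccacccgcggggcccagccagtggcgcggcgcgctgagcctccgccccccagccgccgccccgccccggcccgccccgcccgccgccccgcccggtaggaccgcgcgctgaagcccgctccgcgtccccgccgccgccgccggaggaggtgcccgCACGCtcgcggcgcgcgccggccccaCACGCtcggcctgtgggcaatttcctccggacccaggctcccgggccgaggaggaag
Bnip3: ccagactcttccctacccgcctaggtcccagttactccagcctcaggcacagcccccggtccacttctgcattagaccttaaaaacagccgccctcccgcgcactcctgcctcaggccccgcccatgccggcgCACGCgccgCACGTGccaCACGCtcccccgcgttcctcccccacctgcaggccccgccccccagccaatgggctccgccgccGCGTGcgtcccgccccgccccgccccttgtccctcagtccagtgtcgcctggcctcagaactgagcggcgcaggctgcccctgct
Apln: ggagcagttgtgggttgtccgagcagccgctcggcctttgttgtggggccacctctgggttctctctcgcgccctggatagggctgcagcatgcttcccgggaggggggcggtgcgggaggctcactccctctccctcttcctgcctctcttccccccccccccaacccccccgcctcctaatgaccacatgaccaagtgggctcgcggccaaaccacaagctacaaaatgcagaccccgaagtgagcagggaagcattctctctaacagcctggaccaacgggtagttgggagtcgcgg
Mboat2: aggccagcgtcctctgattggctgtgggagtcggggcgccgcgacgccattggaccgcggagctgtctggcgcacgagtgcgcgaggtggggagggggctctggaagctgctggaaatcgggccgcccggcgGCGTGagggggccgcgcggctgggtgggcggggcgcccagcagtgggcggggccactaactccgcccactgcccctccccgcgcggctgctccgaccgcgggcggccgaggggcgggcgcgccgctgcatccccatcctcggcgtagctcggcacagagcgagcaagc
Bnip3 held 4 capital stretches, 1 of them CACGTG, which matches on both strands and begins at position -108 from the start. Ero1a and Itpk1 held 3 stretches each, Pgf and Mboat2 held 1 each, and Apln held 0 in these 300 bases. Of the 60 bright higher genes 47 had a promoter in the table, and 20 of those (42.6%) held ACGTG on either strand, against 26.7% of the 7047 bright tested genes and 19.7% of all 27025 genes in the table. ACGTG or GCGTG stood in 36 of the 47 (76.6%), against 64.8% of the bright tested genes and 43.8% of all genes. These are counts of letters, with no test, and do not show binding.

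Members of the HIF circuit were divided in direction. Of 15 tested genes of the HIF feedback and oxygen-sensing list, 5 were higher without overlap and 3 lower, where 11.6% of all tested genes were higher without overlap by any amount and 11.6% were lower. The list's median difference was 0.14, against -0.01 over all tested genes, and it was -0.127 with the second hypoxic array left out and -0.0487 with the first normoxic array left out. Egln3, the prolyl hydroxylase that is itself a HIF target, had 9.68 and 9.56 in hypoxia, against 6.56 and 5.67 in normoxia (difference 3.51 ± 0.58, SE; 11.4-fold). Egln1, the main oxygen sensor, had 12.56 and 13.08 in hypoxia, against 11.88 and 11.89 in normoxia, and Vhl had 10.38 and 10.89 in hypoxia, against 9.68 and 9.65 in normoxia. Egln3, Egln1 and Vhl were higher in both hypoxic samples, while Egln2 overlapped, at 11.84 and 12.04 in hypoxia and 11.95 and 12.01 in normoxia. A second spot of Egln2 was lower without overlap, at 9.00 and 9.35 in hypoxia, against 9.44 and 9.73 in normoxia.

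The alpha subunit Hif1a had 10.36 and 11.50 in hypoxia and 10.45 and 11.16 in normoxia, and Epas1, the gene for HIF-2 alpha, had 12.93 and 13.49 in hypoxia and 12.90 and 13.76 in normoxia. Both overlapped, with differences of 0.13 ± 0.43 for Hif1a and -0.12 ± 0.35 for Epas1 (SE), and the sign of each turned when 1 array was left out. Arnt had 8.83 and 8.61 in hypoxia and 6.59 and 8.88 in normoxia, so its mean difference of 0.99 rested on 1 normoxic sample (-0.16 without it), and its other spots gave -0.39 and 0.07. Hif3a, whose products can restrain HIF, was lower in both hypoxic samples at 3.46 and 3.22, against 4.40 and 3.88 in normoxia. These values lie around the dim level of 3.39, its second spot overlapped with a difference of -0.15, and the knockout-labelled difference was 0.12. Hif1an, the asparaginyl hydroxylase that limits HIF activity, was also lower in both, at 5.99 and 5.76, against 6.27 and 6.50. Of the Siah genes, Siah1a differed by -0.15 ± 0.18, Siah1b by 0.22 ± 0.21 and Siah2 by 0.38 ± 0.35 (SE), each close to the size of its error. Siah1a was lower and Siah1b higher without overlap, so both are among the list's counts given above. The knockout-labelled differences were -0.21 for Siah1a, -0.33 for Siah1b and 2.08 for Siah2. Siah2 had 9.29 and 8.87 in knockout-labelled hypoxia, against 6.60 and 7.39 in knockout-labelled normoxia, without overlap. Its difference of responses, wild type minus knockout-labelled, was -1.70 ± 0.50 (SE), with a limma unadjusted p of 0.0135 and an adjusted p of 0.9998. In wild type Siah3 differed by 1.24, with 6.60 and 4.30 in hypoxia and 3.64 and 4.77 in normoxia, which overlapped. These genes, Hif3a and Hif1an included, did not pass limma's adjusted test.

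Genes for glucose uptake and glycolysis lay mostly above normoxia. Of 23 tested members 21 had a difference above 0 (47.7% of all tested genes did), and the median difference was 0.50. Without overlap 15 were higher and 1 lower, against 11.6% of all tested genes in each direction. Slc2a1, the GLUT1 glucose transporter, measured 12.96 and 13.07 in hypoxia, against 11.70 and 11.02 in normoxia (difference 1.66 ± 0.39, SE). Slc16a3, the lactate exporter MCT4, measured 13.87 and 13.89 in hypoxia, against 12.00 and 11.89 in normoxia (difference 1.94 ± 0.36, SE). Hk2, the inducible hexokinase, measured 10.14 and 10.53 in hypoxia, against 9.35 and 8.95 in normoxia.

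Several enzymes of the pathway were higher in both hypoxic samples. Pfkl, the liver-type phosphofructokinase, had 11.01 and 11.21 in hypoxia and 9.88 and 9.88 in normoxia. Pfkfb3, which makes the activator of phosphofructokinase, had 11.19 and 11.95 in hypoxia and 9.65 and 10.12 in normoxia. Tpi1, triosephosphate isomerase, had 14.27 and 14.65 in hypoxia and 13.24 and 13.52 in normoxia. Other spots of these genes varied: Tpi1's gave 1.09, 1.08 and 0.60, the second spot of Pfkl gave 3.10, and the second spot of Pfkfb3 gave 0.08. Aldoc, Pfkp, Pgam1 and Gpi1 were higher by 0.86, 0.72, 0.63 and 0.50, without overlap. Aldoa, Gapdh and Pgk1 sat near the upper end of the scale in every sample, with differences of -0.00, 0.09 and 0.30, so a larger difference may not show there. Slc2a3, Hk1 and Eno1 were also higher without overlap, by 1.20, 0.14 and 0.22, and the remaining members overlapped. Ldha, the lactate dehydrogenase subunit that favours lactate, had 15.92 and 15.69 in hypoxia and 14.97 and 15.75 in normoxia, and Pkm, Pfkm and Ldhb differed by 0.21, 0.29 and -0.08.

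**Figure D3:**
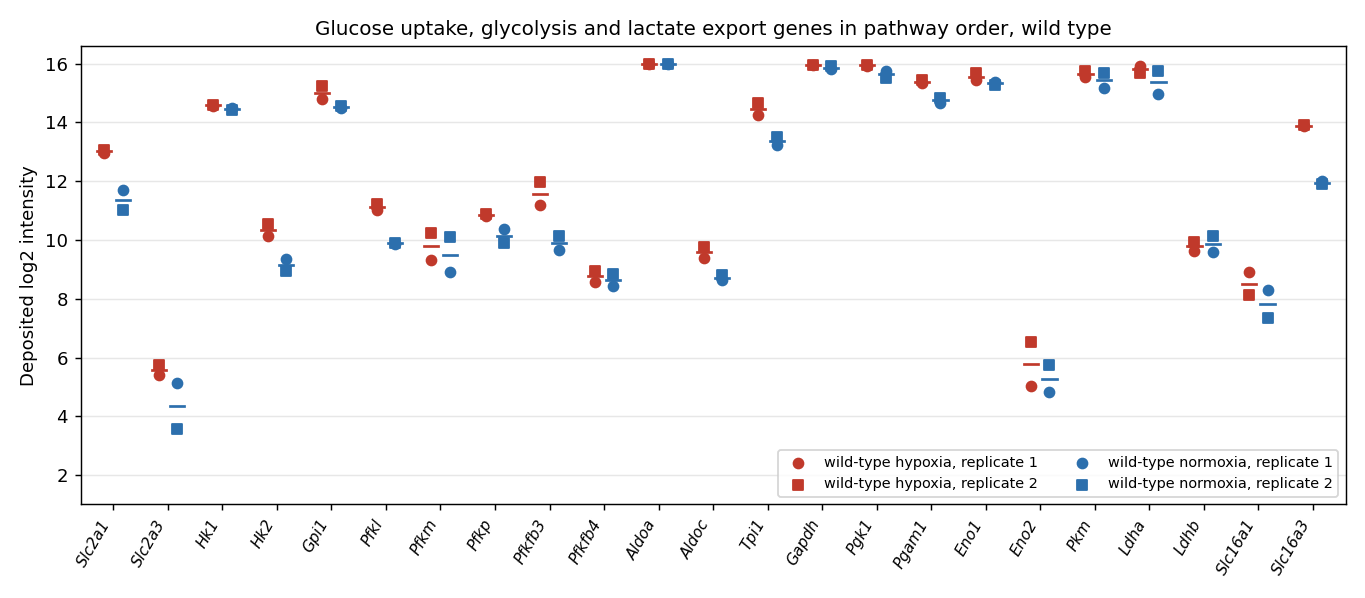
Log2 intensity (vertical) of the 23 glucose uptake, glycolysis and lactate export genes in pathway order (horizontal), in the 2 hypoxic (red, left of each pair) and the 2 normoxic (blue) wild-type samples, with group means as short lines. The hypoxic samples stand clear above the normoxic ones at Slc2a1, Pfkl, Pfkfb3, Tpi1 and Slc16a3, and Aldoa lies at the upper end of the scale.

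Glycogen genes, which store glucose and release it again, had the highest median of the lists, 0.74, with 10 of 11 tested members above 0. Of the 11, 6 were higher without overlap and 1 lower, against 11.6% of all tested genes in each direction. Gys1, muscle-type glycogen synthase, had 11.47 and 12.24 in hypoxia, against 10.38 and 10.15 in normoxia (difference 1.59 ± 0.29, SE). Gbe1, the branching enzyme, had 8.73 and 9.61 in hypoxia, against 8.24 and 8.19 in normoxia. Synthesis genes were not alone, since the phosphorylase Pygl had 9.79 and 10.68 in hypoxia, against 8.73 and 9.14 in normoxia. Pgm1, which links glycogen to glycolysis, had 12.76 and 13.22 in hypoxia, against 11.43 and 12.14 in normoxia.

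Of 17 tested genes of mitochondrial adaptation and mitophagy, 9 were higher without overlap and 1 was lower, with a median of 0.40. Over all tested genes the share was 11.6% in each direction. Pdk1, the kinase that holds pyruvate back from the mitochondrion, had 10.46 and 11.30 in hypoxia, against 8.42 and 8.85 in normoxia (difference 2.25 ± 0.41, SE). Its other spots differed by 2.34, 1.16, 1.09 and 0.06. Ak4, a mitochondrial adenylate kinase, had 11.82 and 11.97 in hypoxia, against 9.91 and 9.25 in normoxia. Mxi1, a Myc antagonist, had 9.92 and 10.72 in hypoxia, against 8.28 and 8.66 in normoxia. Fam162a, a mitochondrial protein gene, had 13.34 and 13.87 in hypoxia, against 12.05 and 12.17 in normoxia. Each of these was higher in both hypoxic samples. Ndufa4l2, a paralogue of a cytochrome oxidase subunit, was higher too, at 9.53 and 11.23 in hypoxia, against 7.98 and 7.79 in normoxia, as was Bnip3l, by 0.77. The kinase Pdk4 was the member lower without overlap, at -0.43. The subunits of the respiratory chain and ATP synthase had a median of -0.00 over 30 tested genes. Of these 0 were higher and 3 lower without overlap, against 11.6% of all tested genes in each direction.

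Of 18 tested angiogenic and vasoactive factors 7 were higher without overlap and 1 was lower, against 11.6% of all tested genes in each direction. Their median was 0.50. Beside Pgf and Apln, Vegfa, the main growth factor of blood vessels, measured 13.24 and 13.35 in hypoxia, against 11.79 and 11.40 in normoxia (difference 1.70 ± 0.36, SE). Its other spots gave 1.40, 1.44 and 1.26. Adm, the gene for adrenomedullin, overlapped, at 12.52 and 13.02 in hypoxia and 11.50 and 12.70 in normoxia. Angptl4, a lipase inhibitor, overlapped as well, at 13.87 and 12.65 in hypoxia and 13.47 and 10.58 in normoxia.

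Enzymes that modify collagen gave a narrower set. Of 17 tested members 5 were higher without overlap and 2 lower, against 11.6% of all tested genes in each direction. Their median was 0.09. Besides Ero1a, P4ha2, a catalytic subunit of collagen prolyl 4-hydroxylase, had 12.33 and 12.80 in hypoxia, against 11.69 and 11.45 in normoxia (difference 1.00 ± 0.22, SE). P4ha1, its sister subunit, had 11.21 and 11.28 in hypoxia, against 11.02 and 10.99 in normoxia. Plod1, a lysyl hydroxylase, had 9.36 and 9.70 in hypoxia, against 8.98 and 9.18 in normoxia. Plod2 and the crosslinking enzyme Lox overlapped, with differences of 0.37 ± 0.36 and 0.14 ± 0.31 (SE). The collagens and matrix proteins themselves had a median of -0.01 over 25 tested genes, 7 higher and 1 lower without overlap. Fn1, fibronectin, was the largest of these at 0.71, close to the upper end of the scale, while its other spots gave -0.04, -0.09 and 0.52. Myofibroblast and TGF-beta target genes had a median of -0.02 over 17 tested genes, with 1 higher and 1 lower without overlap, against 11.6% of all tested genes in each direction. Smad7, an inhibitor of TGF-beta signalling, was higher, at 10.72 and 10.57 in hypoxia, against 10.05 and 9.82 in normoxia. Tgfbr1, a TGF-beta receptor, was lower, at 9.60 and 9.38 in hypoxia, against 9.64 and 9.87 in normoxia.

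The JmjC histone demethylases use oxygen as a substrate, and their median was 0.10. Of 16 tested members 5 were higher without overlap and 0 lower, against 11.6% of all tested genes in each direction. Kdm3a had 9.46 and 9.88 in hypoxia, against 8.22 and 8.94 in normoxia, and Kdm4b had 10.28 and 10.83 in hypoxia, against 9.00 and 9.69 in normoxia. Second spots of these genes gave 0.19 for Kdm3a and -0.21 for Kdm4b. Kdm6b had 8.60 and 9.04 in hypoxia, against 8.13 and 8.28 in normoxia.

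Clock genes were divided in direction: of 14 tested members 5 were higher and 4 lower without overlap, and the median was -0.06. The share over all tested genes was 11.6% in each direction. Bhlhe40, a repressor of the clock, had 9.96 and 10.48 in hypoxia, against 8.68 and 9.21 in normoxia, and Cry2, a core repressor, had 10.36 and 10.98 in hypoxia, against 9.77 and 10.14 in normoxia. Per3, Per2, Per1 and Nr1d2 were the lower ones, by amounts of -0.55, -0.36, -0.18 and -0.15. Other spots of Per3 gave 0.06 and 1.26, in the opposite direction.

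Lipid genes had a median of 0.08 over 15 tested members. Of these 4 were higher and 3 lower without overlap, against 11.6% of all tested genes in each direction. Vldlr, a lipoprotein receptor, had 9.93 and 10.80 in hypoxia, against 8.46 and 8.36 in normoxia, and Hilpda, a lipid droplet protein that inhibits lipolysis, had 9.51 and 10.34 in hypoxia, against 8.75 and 8.14 in normoxia. Growth arrest and mTOR restraint genes had 12 of 14 tested members above 0, 6 higher without overlap and 0 lower, with a median of 0.28. Ddit4, an inhibitor of mTOR, had 13.66 and 14.36 in hypoxia, against 12.80 and 13.21 in normoxia, and Ndrg1, a stress-responsive gene, had 10.69 and 12.23 in hypoxia, against 9.93 and 10.26 in normoxia. Ampd3, an AMP deaminase, was higher without overlap among 10 tested adenosine genes, at 10.40 and 10.88 in hypoxia, against 9.12 and 9.75 in normoxia. Car9, a carbonic anhydrase widely used as a hypoxia marker, was at 4.88 and 5.45 in hypoxia and 5.32 and 5.97 in normoxia, which overlapped. Iron-handling genes had a median of -0.01 over 12 tested members, 1 higher and 1 lower.

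**Figure D4:**
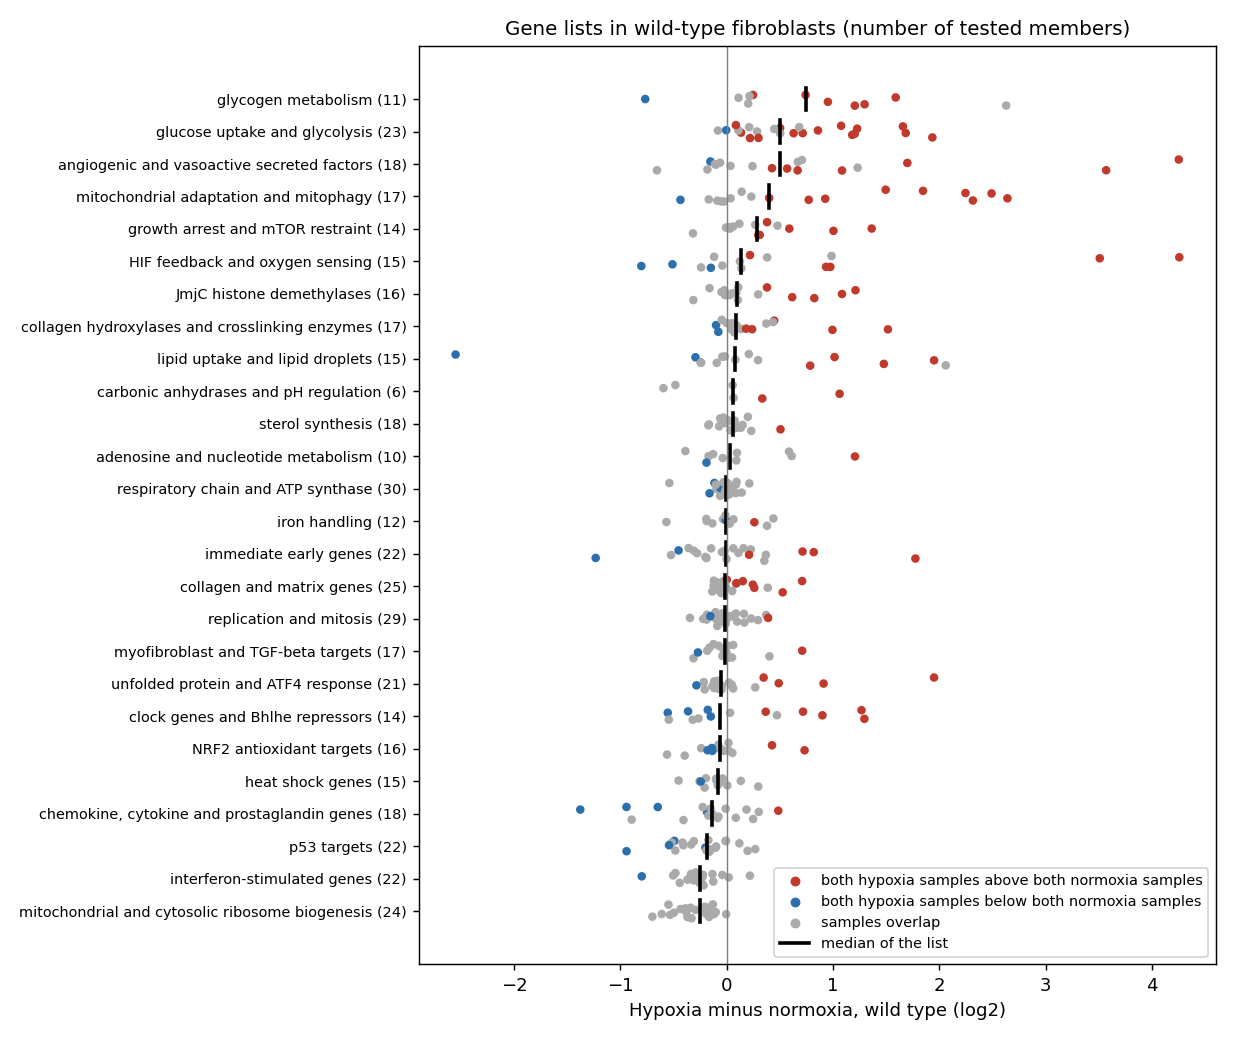
Difference between the hypoxic and normoxic wild-type means (log2, horizontal) of every tested member of 26 gene lists (rows, with the number of tested members), red where both hypoxic samples were above both normoxic ones, blue where both were below, grey where samples overlapped, and a black bar at the list's median. Glycogen metabolism has the highest median (0.74), and interferon-stimulated genes (-0.25) and ribosome biogenesis (-0.25) have the lowest.

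Lists less tied to oxygen mostly had medians near 0, and several lay below it. Over all tested genes, 47.7% were above 0 and 11.6% were lower without overlap. All 24 tested ribosome biogenesis genes had a difference below 0, with a median of -0.25, and 0 were lower without overlap. Their mean level was 10.9 and 10.1 in hypoxia, against 11.1 and 10.4 in normoxia, and the replicates of each group stood further apart than the groups. Rrs1 had 9.17 and 8.33 in hypoxia and 9.61 and 9.11 in normoxia, and Rrp9 had 9.49 and 8.43 in hypoxia and 10.37 and 8.94 in normoxia. Interferon-stimulated genes had 2 of 22 tested members above 0, a median of -0.25 and 1 lower without overlap, Oasl1, at 6.43 and 5.84 in hypoxia, against 7.14 and 6.72 in normoxia. The mean level of the 22 interferon-stimulated genes was 7.83 and 8.17 in hypoxia, against 7.54 and 8.98 in normoxia, so both hypoxic samples lay above 1 normoxic sample and below the other. In the knockout-labelled samples 17 of the 22 were above 0, with a median of 0.16. Targets of p53 had 3 of 22 above 0, a median of -0.19 and 4 lower without overlap. Among them Gdf15, a stress cytokine, had 9.12 and 9.88 in hypoxia, against 9.93 and 10.96 in normoxia, and Eda2r had 8.33 and 7.91, against 8.65 and 8.57.

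Of 18 tested chemokine, cytokine and prostaglandin genes 1 was higher and 4 were lower without overlap, with a median of -0.14. The share over all tested genes was 11.6% in each direction. The monocyte attractant Ccl7 had 10.92 and 11.56 in hypoxia, against 11.94 and 13.29 in normoxia (difference -1.38 ± 0.71, SE), and Ccl2 had 12.97 and 13.48 in hypoxia, against 13.75 and 14.59 in normoxia. Il6 had 12.50 and 11.43 in hypoxia, against 12.59 and 12.63 in normoxia. Of the other bright lower genes, Medag had 13.39 and 15.45 in hypoxia, against 15.55 and 15.91 in normoxia, and a second spot of it gave 0.97 in the opposite direction. Cabp5 had 7.47 and 8.16 in hypoxia, against 8.38 and 9.34 in normoxia. Mfsd2b had 11.66 and 11.28 in hypoxia, against 11.70 and 14.77 in normoxia, so its difference rested on 1 normoxic sample. Immediate early genes had a median of -0.01 over 22 tested members, with Ier3 the most different at 11.81 and 12.39 in hypoxia, against 10.72 and 9.92 in normoxia. The unfolded protein and ATF4 list had a median of -0.05 over 21, with Trib3 at 10.35 and 10.92 in hypoxia, against 9.84 and 9.59 in normoxia. Replication, sterol synthesis, NRF2 and heat shock lists had medians of -0.02, 0.06, -0.06 and -0.08.

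Cell type markers were set beside these results. The 14 fibroblast markers had a mean level of 13.6 and 13.5 in the hypoxic samples and 13.6 and 13.5 in the normoxic samples. Macrophage markers were also measured above the dim level of 3.39, 15 of 17 of them, with a mean level of 12.0 and 12.5 in hypoxia and 12.1 and 12.5 in normoxia, and a median difference of -0.03. C1qa, a complement gene of macrophages, had 12.9 and 13.6 in hypoxia and 13.2 and 13.7 in normoxia. Endothelial markers had a mean level of 5.86 and 5.63 in hypoxia and 5.62 and 5.65 in normoxia. The cardiomyocyte genes Myh6, Myh7, Tnni3 and Pln were below the dim level. Actc1, of the same list, was bright, at 14.36 and 14.13 in hypoxia, against 14.45 and 14.38 in normoxia. The 6 tested cardiomyocyte markers had a mean level of 6.71 and 6.38 in hypoxia and 6.70 and 6.45 in normoxia. Their median difference was -0.10, and 2 of them were lower without overlap, against 11.6% of all tested genes. Of 10 epicardial markers 9 were above 0, with a median of 0.17, and Krt19 was the only 1 of them higher without overlap. In bulk samples fewer cells of a type and less RNA per cell cannot be told apart, and the part of other cell types in the differences above was not tested.

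The knockout-labelled samples, which share no array with the wild-type samples, gave a separate reading of the same genes. Of the 60 bright genes higher in wild-type hypoxia, 58 had a difference above 0 in the knockout-labelled samples (46.8% of all tested genes did) and 52 were higher without overlap there (10.2% of all tested genes). Their median difference was 1.52 in wild type and 1.24 in the knockout-labelled samples. Of the 174 dimmer genes that were higher by at least 1 in wild type, 103 had a difference above 0 and 43 did not overlap, with medians of 1.18 in wild type and 0.17 in the knockout-labelled samples. The 4 bright lower genes were all below 0 in the knockout-labelled samples, 0 of them without overlap, with medians of -1.34 and -0.35. All of these genes were chosen for the size of their wild-type difference, which by itself draws the wild-type medians away from 0. The medians of a set are therefore not a comparison of the genotypes.

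Pgf differed by 4.25 in wild type and 3.16 in the knockout-labelled samples, Ankrd37 by 4.26 and 4.02, Apln by 3.57 and 3.55, and Bnip3 by 2.64 and 2.45. Slc16a3 ran the other way, with 1.94 in wild type and 2.56 in the knockout-labelled samples. The difference of the 2 responses, wild type minus knockout-labelled, was 1.09 ± 0.57 (SE) for Pgf and -0.63 ± 0.50 (SE) for Slc16a3. Limma's test of that difference called 0 of 17014 genes (0%) at an adjusted p of 0.05 and 416 (2.45%) at an unadjusted p under 0.05, 0 of them among the 60. Plxna4os1, an antisense RNA gene, had the widest wild-type difference of the 60 at 5.60, from 3.28 and 13.17 in hypoxia and 2.32 and 2.93 in normoxia, so 1 hypoxic sample carried it, and the knockout-labelled difference was -0.23. It and 9330175M20Rik were the 2 of the 60 not above 0 in the knockout-labelled samples. Both are named here after their values were seen.

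**Figure D5:**
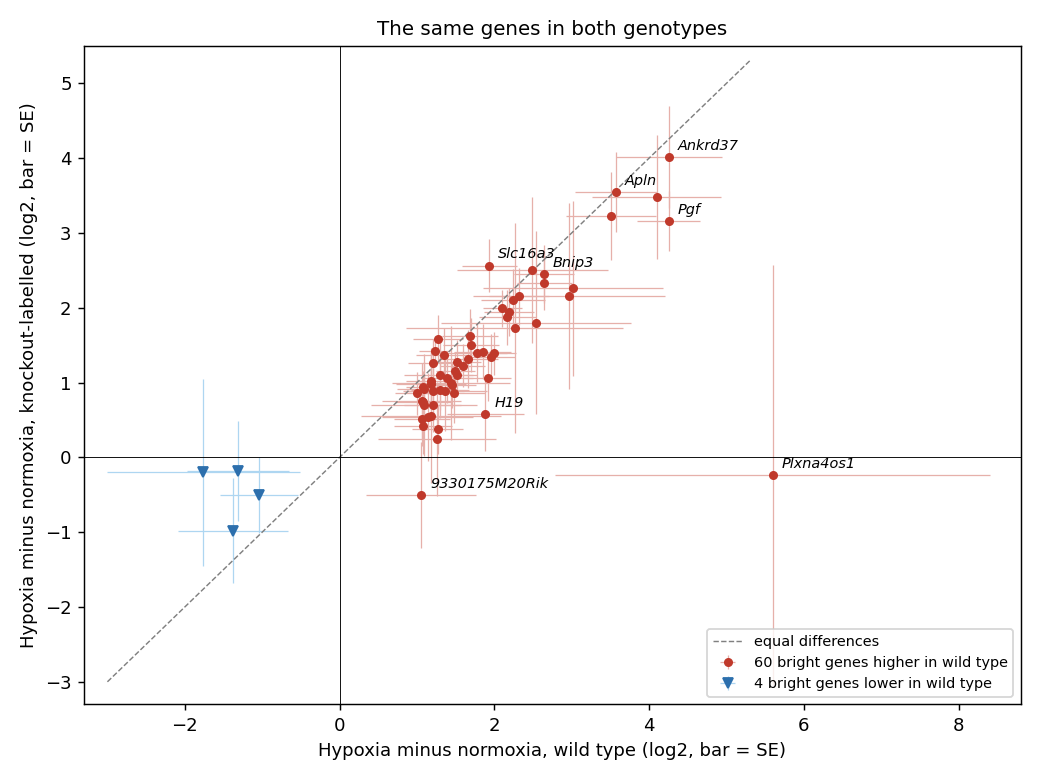
Hypoxia minus normoxia (log2, bars are SE) in wild-type samples (horizontal) against knockout-labelled samples (vertical), for the 60 bright genes higher (red) and the 4 lower (blue triangles) in wild-type hypoxia, with a dashed line at equal differences. Most red points lie above 0 on both axes, and Plxna4os1 lies at 5.60 and -0.23.

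The 13 oxygen-related lists hold 188 of the 17014 tested genes and were written with earlier results of these data known. Of the 60 bright higher genes 30 belong to them, a count that is therefore no test of the lists. The others include Zbtb8b, a zinc finger gene, at 4.10 in wild type and 3.48 in the knockout-labelled samples. They also include Rgcc, a cell cycle regulator, at 2.97 and 2.15, and H2-Ab1, an MHC class II gene, at 3.02 and 2.26. In wild type Zbtb8b had 8.26 and 9.49 in hypoxia, against 3.54 and 6.01 in normoxia, and Rgcc had 7.49 and 9.91, against 4.76 and 6.70. Knockout-labelled hypoxic replicates were far apart for Rgcc, at 8.20 and 5.17, and for H2-Ab1, at 8.84 and 5.74. In wild type H2-Ab1 had 6.98 and 8.63 in hypoxia, against 3.77 and 5.81 in normoxia, with replicates far apart in both groups. The macrophage marker median given above was -0.03. H19, an imprinted non-coding RNA, had 7.62 and 8.82 in hypoxia, against 6.73 and 5.94 in normoxia, and differed by 0.58 in the knockout-labelled samples. These genes were chosen after their values were seen. Of the 60 genes 25 had other spots above the dim level, 39 spots in all, and 35 of those spots were higher in hypoxia, 20 of them by at least 1.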

How the data were processed

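Total RNA of 8 samples in 4 groups was measured on 1-colour Agilent arrays, per the labels. The authors deposited 1 table of log2 intensities for all 8 arrays. The submitters' processing notes name limma, and its version, the background correction and the normalization are not given in the sources used here. That the scale is log2 was read from the values (2.13 to 16.0). Column medians were all 3.94, and no further normalization was applied. Spots were named through GEO's platform annotation and RefSeq: 33708 by accession, 9763 by current symbol, 463 by synonym and 7 with the old symbol kept, while 19035 carried no gene. The dimmest 30% of genes (mean up to 3.39) were left out, and 10 values were missing.

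Differences were fitted with limma 3.58.1 in R 4.3.3 (lmFit and eBayes, 4 group means over all 8 samples, 4 residual and 2.25 prior degrees of freedom), with Benjamini-Hochberg adjustment over 17014 genes, two-sided, and the fit was tested on simulated data. The number of arrays limits the precision. Named genes were up to 15 bright genes in each direction by p, without overlap and at least 1 apart, up to 5 members of each list by p, the HIF, hydroxylase, Vhl and Siah genes, and others described as chosen after their values were seen or given as examples of a list. The members, lists and rules were chosen with earlier results of these data known.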

Additional observations from a re-analysis of the deposited data

How the results depend on the processing

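With 2 samples in each group, a single array decides many values. No gene was called by limma (adjusted p under 0.05) under any of 12 other settings of normalization, filter, spot choice, spread or block, where 315 to 1217 genes had an unadjusted p under 0.05. Without wild-type hypoxia replicate 1 or 2, 1 gene was called in each case, Plxna4os1 and Zfp872, with the lone sample assumed to vary like the other groups. Genes higher by at least 1 without overlap numbered 234, and 101 when a stricter filter on dim genes left 12153 tested, and genes lower 118 and 15. Leaving out 1 array gave 234 to 655 higher and 118 to 446 lower. For bright genes, counts added after seeing the data, the 60 higher and 4 lower became 134 and 42 with no filter on dim genes, and 60 to 140 and 4 to 71 when 1 array was left out. With 1 array left out, the median of the HIF feedback list ranged from -0.127 to 0.31 and that of glycolysis from 0.473 to 0.737. Of 105 genes followed, 91 kept their direction under every setting that tested them, and 5 of the 105 fell below the stricter filter. Settings that change only the spread, the block or the knockout-labelled samples leave the wild-type difference as it was. A gene without overlap also keeps its sign when 1 array is left out. Much of that count was thus fixed in advance. With 1 array left out, Hif1a ranged from -0.44 to 0.69, Epas1 from -0.55 to 0.31, Arnt from -0.16 to 2.13, Egln2 from -0.139 to 0.0581, Rrp9 from -1.41 to 0.0174, Angptl4 from -0.21 to 2.68, Lox from -0.17 to 0.45, Nop58 from -1.13 to 0.0627, Pkm from -0.0289 to 0.45, Pfkm from -0.32 to 0.89, Ldhb from -0.35 to 0.18 and C1qa from -0.50 to 0.17. With the mean over all spots of a gene, Per1 was 0.0102, Per3 0.25 and Ldhb 0.0889. The cause was not tested.

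The samples share only a replicate number. Deviations of same-numbered wild-type samples correlated at 0.308. A fit with the replicate number as a block called 0 genes, with 567 at an unadjusted p under 0.05, and blocks by genotype and number gave 1174 (fixed) and 1217 (random, smallest adjusted p 0.0745), against 616 without a block.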

Other observations

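Of 9104 spots without a gene name that lay above the dim level, 121 (1.33%) were higher in both wild-type hypoxic samples than in both normoxic samples by at least 1 in the mean, and 99 (1.09%) were lower.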
